A study of Homo sapiens with 4 samples.

Results

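The lysosome and autophagy genes followed here are 38 genes taken by name from the 58735 Ensembl identifiers of the series. They encode lysosomal enzymes and their activators, membrane proteins, proton pump subunits, autophagy proteins and the transcription factor TFEB. All 38 were found by symbol and all 38 passed the filter of a mean of at least 1 FPKM, as did 14523 genes in all. FPKM, fragments scaled to exon length and library depth, is the unit of the deposited values. Comparisons of level between genes therefore depend on the exon length used for each gene. RNA came from HCT116, an established human colorectal carcinoma cell line, harvested 48 h after the cells received a small interfering RNA (siRNA). The groups are control siRNA, with 2 libraries, and KIF26B siRNA, also with 2, with no other agent named in the labels. KIF26B encodes a kinesin-family protein, and the study silenced it to look into its part in the aggressiveness of colorectal cancer. The study used 2 siRNAs against KIF26B, and the labels do not say which of them went into each library. The column headers mark the KIF26B siRNA libraries as K_KD1_2 and K_KD2, and what these numbers stand for is not given in the sources used here. Whether replicates were separate cultures is not given either, so that the P values below measure only the spread between these libraries.

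The lysosome is the acidic compartment in which cells break down proteins, sugars and lipids. A vacuolar proton pump acidifies it, hydrolases digest its content, and membrane proteins export the products. Autophagy delivers cytoplasm to it in membrane sacs whose formation starts with the ULK1 kinase and whose membranes carry proteins of the LC3 and GABARAP family. TFEB is known to bind promoter elements around the sequence CACGTG in many of these genes and to raise their transcription when nutrients are short.

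Library depths of between 18068934 and 24673739 fragments were inferred from the FPKM values. Read counts given here were recovered from FPKM in the same way, and the members had between 175 and 20007 reads per library. Recovered reads of KIF26B siRNA replicate 2 summed to 19145238, above its inferred depth of 18068934, so that read counts are approximate. KIF26B (ENSG00000162849) had 0.110 and 0.205 FPKM with control siRNA, on 31 and 73 reads, and 0.140 and 0.0307 FPKM in the libraries labelled KIF26B siRNA, on 43 and 8 reads. Its level in KIF26B siRNA replicate 1 was thus within the range of the controls, and every direction below compares libraries by their labels. Mitochondrial genes held 6.83% and 6.85% of the reads in the control libraries and 9.60% and 7.72% in the KIF26B siRNA libraries, and their part in the differences below was not tested. Of 10 markers of colorectal epithelium, 7 had a mean of at least 1 FPKM, with summed levels of 1627 to 1748 FPKM over the 4 libraries, whereas KRT20, VIL1 and CEACAM5 stayed below it. None of 9 macrophage and leukocyte markers reached that mean: their summed levels were 0.676 to 1.08 FPKM, and FCGR3A, CD3E and TYROBP were at 0 in every library. Among fibroblast markers 1 of 7 reached it, COL1A1, with summed levels of 4.93 to 8.82 FPKM. Among endothelial markers 0 of 3 with a symbol did, with summed levels of 0.114 to 0.402 FPKM. In bulk RNA of this kind, fewer cells in a given state and less RNA per cell cannot be told apart.

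The members did not move in one direction. CTSD, TPP1, PSAP, WIPI1, PPT1, NAGLU and HEXA had higher levels under the KIF26B siRNA label, and NEU1, MCOLN1, SMPD1, ATP6V0D1, GUSB and ATP6V1H were lower, each at an unadjusted P below 0.05 with limma on log2(FPKM + 1). These 7 higher genes are 18.4% of the members, against 7.74% of all genes tested, and the 6 lower genes are 15.8% of the members, against 8.68% of all genes tested. The members and the further lists below were chosen with earlier results of these data known. Such shares are therefore a description and not a test. The median log2 fold change of the members was −0.02, beside −0.01 over all genes tested. After Benjamini–Hochberg adjustment over all 14523 genes, limma called 0 members and 0 genes at 0.05 (0% of those tested), whereas 13 members and 2385 genes had an unadjusted P below 0.05. The smallest adjusted p among members was 0.242 from limma.

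In 13 members both KIF26B siRNA libraries lay above both controls, and in another 13 both lay below. Each is 34.2% of the members, where 24.9% of all genes tested lay above and 27.8% below. With a pseudocount of 1, CTSD was the only member beyond 1 on the log2 scale at that P threshold, where 1.42% of all genes tested were. NEU1, at −0.93 on this scale, was at −1.02 with a pseudocount of 0.1 and at −1.04 with limma-voom on recovered reads, and so passed both thresholds there. These counts depend on single libraries. Without control siRNA replicate 1 or without control siRNA replicate 2, 0 members were higher and 1 was lower at the unadjusted threshold. Without KIF26B siRNA replicate 1 the counts were 13 and 10, and without KIF26B siRNA replicate 2 they were 11 and 13. A library left alone in its group was assumed to vary like the other group. An exact permutation test, two-sided, cannot go below 0.333 with 2 libraries against 2, so none is reported.

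**Figure D1:**
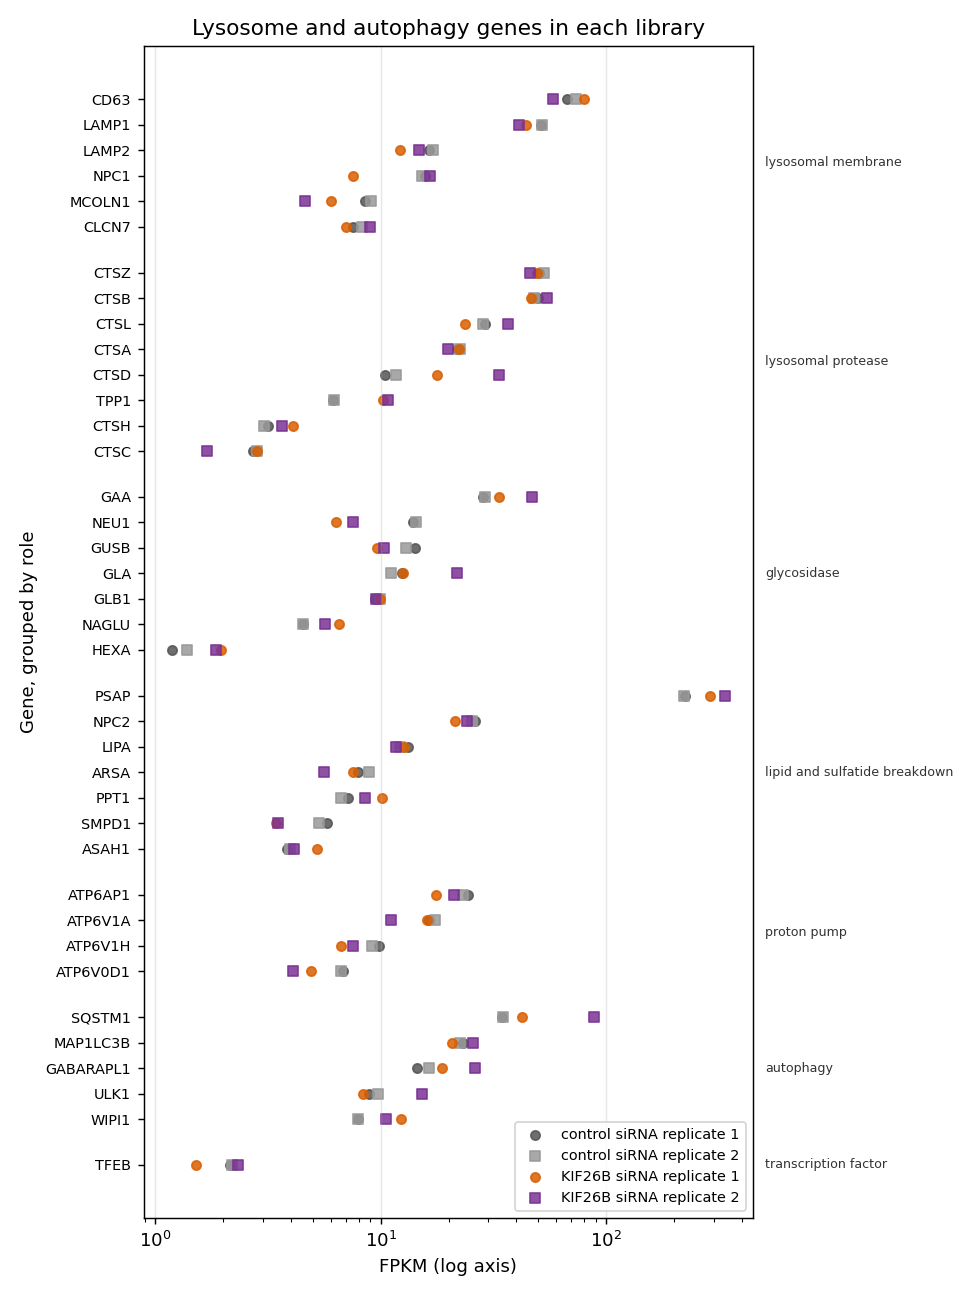
FPKM of the 38 lysosome and autophagy genes on a log axis, 1 row per gene grouped by role and ordered by control level, with 1 point for each of the 4 libraries. The control points nearly coincide, PSAP is the highest gene at 221.7 to 336.8 FPKM, and the KIF26B siRNA points of SQSTM1, CTSD and NPC1 lie far apart from each other.

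The promoters of the members are shown because TFEB and its relatives are known to read the letters CACGTG there. RefSeq windows of GRCh38.p14, from 250 bases before to 50 bases after a gene's start, were at hand for 29 of the 38 members. The palindrome CACGTG was found in windows of 9 members, ATP6V0D1, CD63, CLCN7, CTSA, CTSD, GAA, LAMP1, MCOLN1 and NEU1, and in 7.26% of all 35116 windows, or those of 8.77% of 27305 genes. The longer palindrome made of GT, CACGTG and AC was found in GAA and MCOLN1 and in 0.353% of all windows. A palindrome reads the same on both strands, so that 1 search covers both. The stretches below, 60 bases each, are those of the members with the longer palindrome, of the other members with CACGTG that passed the unadjusted threshold, and of LAMP1, whose window holds 6 copies. They are written 5′ to 3′ on the gene's strand, and capitals mark CACGTG.
MCOLN1 (chr19:7522583-7522642, plus strand): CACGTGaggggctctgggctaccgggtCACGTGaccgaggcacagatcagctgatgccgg
GAA (chr17:80101523-80101582, plus strand): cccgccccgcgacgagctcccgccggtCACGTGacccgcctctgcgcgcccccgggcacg
NEU1 (chr6:31862915-31862974, minus strand): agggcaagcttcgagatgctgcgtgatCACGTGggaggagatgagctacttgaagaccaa
ATP6V0D1 (chr16:67481184-67481243, minus strand): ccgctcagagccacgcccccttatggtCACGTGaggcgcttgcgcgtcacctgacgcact
CTSD (chr11:1763942-1764001, minus strand): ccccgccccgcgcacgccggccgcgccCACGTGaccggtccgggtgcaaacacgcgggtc
LAMP1 (chr13:113297211-113297270, plus strand): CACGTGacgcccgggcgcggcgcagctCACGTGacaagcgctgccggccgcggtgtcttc
Of the 9 members with CACGTG, CTSD was higher, NEU1, MCOLN1 and ATP6V0D1 were lower, and 5 did not pass the unadjusted threshold. Over all 38 members 18.4% were higher and 15.8% lower, and over all genes tested 7.74% and 8.68%. Whether CACGTG goes with a difference between the groups was not tested. A match is a description of the letters and not of binding.

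Of the 4 proton pump subunits among the members, 2 were lower at the unadjusted threshold, and in all 4 the KIF26B siRNA libraries both lay below both controls. Over all genes tested, 8.68% were lower and 27.8% lay below. ATP6V0D1, a subunit of the membrane sector, was at 6.81 and 6.64 FPKM in control siRNA and at 4.89 and 4.09 FPKM in KIF26B siRNA libraries, a log2 fold change of −0.50 (limma standard error 0.13, adjusted p = 0.258). Its promoter stretch above holds CACGTG 59 bases before the annotated start. ATP6V1H, a regulatory subunit of the cytosolic sector, was at 9.82 and 9.20 FPKM in control and at 6.70 and 7.56 FPKM in KIF26B siRNA libraries, a log2 fold change of −0.37 (limma standard error 0.12, adjusted p = 0.289). Both KIF26B siRNA libraries were low for each of these genes. ATP6V1A, the catalytic subunit, was at 16.4 and 17.4 FPKM in control and at 16.0 and 11.1 FPKM in KIF26B siRNA libraries. ATP6AP1, an accessory protein of the pump, was at 24.4 and 23.1 FPKM in control and at 17.6 and 21.1 FPKM in KIF26B siRNA libraries. Neither ATP6V1A nor ATP6AP1 passed the unadjusted threshold, with log2 fold changes of −0.32 and −0.29.

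Among the 6 membrane proteins, 1 passed the unadjusted threshold, and it was lower (16.7%, where 8.68% of all genes tested were). MCOLN1 (ENSG00000090674), a calcium and cation channel of the lysosomal membrane, was at 8.49 and 9.07 FPKM in control siRNA and at 6.01 and 4.64 FPKM in KIF26B siRNA libraries. The log2 fold change was −0.64 (limma standard error 0.16, adjusted p = 0.248). Exons of MCOLN1 overlap those of PNPLA6 on the same strand, which was at 16.5 and 16.8 FPKM in control and at 17.3 and 18.4 FPKM in KIF26B siRNA libraries. LAMP1 and LAMP2, the most abundant glycoproteins of the lysosomal membrane, lay below both controls in both KIF26B siRNA libraries without passing the threshold. LAMP1 was at 51.3 and 51.8 FPKM against 43.9 and 40.9 FPKM (adjusted p = 0.335), and LAMP2 was at 16.4 and 17.1 FPKM against 12.2 and 14.8 FPKM (adjusted p = 0.389, both from limma). The groups of the remaining membrane genes overlapped. NPC1, the cholesterol exporter of the lysosome, was at 15.8 and 15.3 FPKM in control and at 7.54 and 16.5 FPKM in KIF26B siRNA libraries, so that replicate 1 alone was low. Exons of NPC1 overlap RMC1 on the opposite strand, at 12.3 and 11.1 FPKM in control and at 8.12 and 10.6 FPKM in KIF26B siRNA libraries. CD63, a tetraspanin, ranged from 58.3 to 80.1 FPKM, with the KIF26B siRNA libraries at both ends. CLCN7, a chloride–proton exchanger, ranged from 7.005 to 8.998 FPKM with both extremes again in the KIF26B siRNA libraries.

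**Figure D2:**
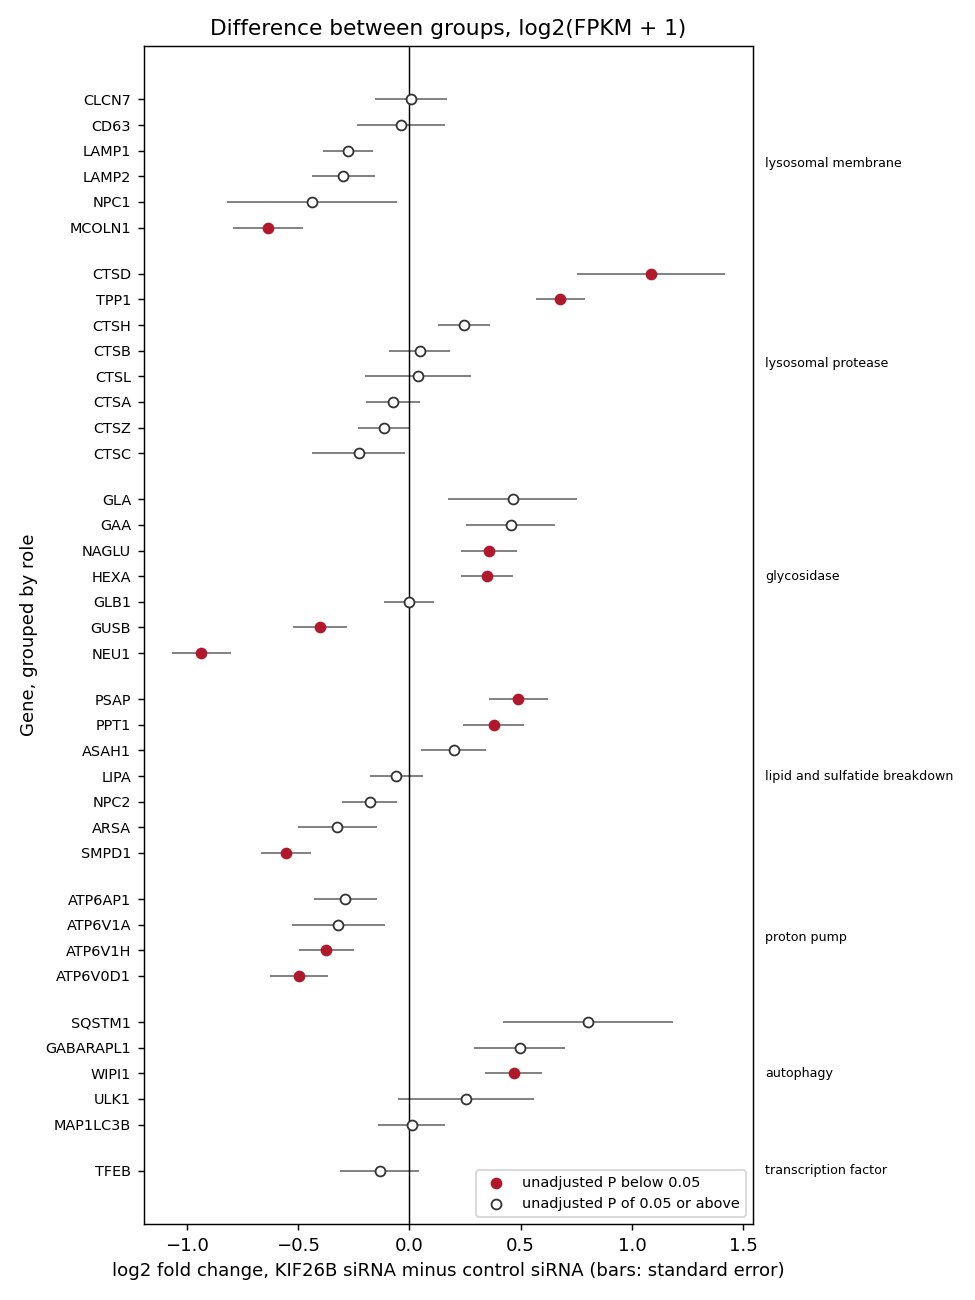
log2 fold change of the group means, KIF26B siRNA minus control siRNA on log2(FPKM + 1), for the 38 genes grouped by role, with bars of 1 standard error. Filled points mark the 13 genes with an unadjusted P below 0.05; all 4 proton pump genes lie below 0 and all 5 autophagy genes at or above 0.01.

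The highest log2 fold change among the members was that of a protease. CTSD (ENSG00000117984), the aspartic protease cathepsin D, was at 10.4 and 11.6 FPKM in control siRNA and at 17.8 and 33.6 FPKM in KIF26B siRNA libraries, or 1.62 and 3.04 times the control mean. Its log2 fold change was 1.09 (limma standard error 0.33, adjusted p = 0.275). Exons of CTSD overlap a gene on the same strand, ENSG00000229512, whose values were 2.22 and 1.61 FPKM in control and 2.79 and 6.81 FPKM in KIF26B siRNA libraries, so that shared reads cannot be assigned. TPP1, a tripeptidyl peptidase, was at 6.15 and 6.21 FPKM in control and at 10.2 and 10.7 FPKM in KIF26B siRNA libraries, a log2 fold change of 0.68 (limma standard error 0.11, adjusted p = 0.242). TPP1 differed little between libraries of a group, whereas CTSD differed 1.88-fold between the KIF26B siRNA libraries. The 6 other proteases did not pass the threshold. CTSH lay above both controls in both libraries, at 3.17 and 3.03 FPKM against 4.09 and 3.64 FPKM, and CTSZ below, at 50.5 and 53.0 FPKM against 49.3 and 46.1 FPKM. The groups overlapped for CTSA, which protects NEU1 and GLB1 in a complex, and for the cysteine proteases CTSB, CTSC and CTSL. CTSL was at 28.9 and 28.5 FPKM in control and at 23.8 and 36.5 FPKM in KIF26B siRNA libraries, and CTSC at 2.71 and 2.84 against 2.84 and 1.701 FPKM. CTSA ranged from 19.9 to 22.5 FPKM and CTSB from 46.5 to 54.9 FPKM. Exons of CTSB overlap RP11-589N15.2 on the same strand, which ranged from 4.09 to 10.7 FPKM.

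The glycosidases, which remove sugars from glycoproteins and glycolipids, were divided. NEU1 (ENSG00000204386), the lysosomal sialidase, was at 13.9 and 14.4 FPKM in control siRNA and at 6.34 and 7.56 FPKM in KIF26B siRNA libraries. Its log2 fold change of −0.93 (limma standard error 0.13, adjusted p = 0.242) was the lowest among the members. GUSB, β-glucuronidase, was at 14.2 and 12.9 FPKM in control and at 9.66 and 10.4 FPKM in KIF26B siRNA libraries, a log2 fold change of −0.40 (limma standard error 0.12, adjusted p = 0.274). In both genes the libraries within each group lay close together.

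HEXA, the α subunit of β-hexosaminidase, was at 1.18 and 1.38 FPKM in control and at 1.96 and 1.86 FPKM in KIF26B siRNA libraries, a log2 fold change of 0.35 (limma standard error 0.12, adjusted p = 0.289). It had the lowest control FPKM of the members, on a recovered exon length of 12611 bases. By reads it was not the lowest, with 293 to 527 per library where TFEB had 183 to 306. NAGLU, which degrades heparan sulfate, was at 4.53 and 4.51 FPKM in control and at 6.51 and 5.66 FPKM in KIF26B siRNA libraries, a log2 fold change of 0.36 (limma standard error 0.12, adjusted p = 0.296). GAA, which degrades glycogen, and GLA, which degrades globotriaosylceramide, also lay above both controls in both libraries but did not pass the threshold. GAA was at 28.4 and 29.0 FPKM against 33.5 and 47.0 FPKM (adjusted p = 0.357), and GLA at 12.4 and 11.1 FPKM against 12.6 and 21.7 FPKM (adjusted p = 0.476, both from limma). Most of the difference of GLA came from KIF26B siRNA replicate 2. GLB1, β-galactosidase, was at 9.46 and 9.97 FPKM in control and at 9.89 and 9.50 FPKM in KIF26B siRNA libraries, with a 95% interval of the log2 fold change from −0.31 to 0.31.

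Among the genes of lipid and sulfatide breakdown, PSAP was the most highly expressed of all 38 members in control libraries, with a mean of 222.1 ± 0.493 FPKM (SD, n = 2). PSAP encodes the precursor of the saposins, which present sphingolipids to their enzymes. It was at 222.4 and 221.7 FPKM in control siRNA and at 289.1 and 336.8 FPKM in KIF26B siRNA libraries, a log2 fold change of 0.49 (limma standard error 0.13, adjusted p = 0.258). PPT1, a thioesterase that removes palmitate from proteins, was at 7.14 and 6.71 FPKM in control and at 10.1 and 8.53 FPKM in KIF26B siRNA libraries, a log2 fold change of 0.38 (limma standard error 0.14, adjusted p = 0.304). The unadjusted P of PPT1 lay at the threshold and exceeded it under several other settings, among them median-of-ratios scaling and a pseudocount of 0.1. SMPD1, acid sphingomyelinase, was lower, at 5.798 and 5.34 FPKM against 3.42 and 3.52 FPKM, a log2 fold change of −0.55 (limma standard error 0.11, adjusted p = 0.242). Saposin precursor and sphingomyelinase therefore lay on opposite sides in both KIF26B siRNA libraries.

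The 4 other genes of this class did not pass the threshold. ARSA, which desulfates sulfatide, lay below both controls at 7.92 and 8.86 FPKM against 7.54 and 5.59 FPKM. NPC2, the soluble cholesterol carrier, also lay below, at 26.1 and 25.5 FPKM against 21.4 and 24.1 FPKM. ASAH1, acid ceramidase, lay above at 3.86 and 3.95 FPKM against 5.21 and 4.12 FPKM. LIPA, lysosomal acid lipase, ranged from 11.7 to 13.2 FPKM with overlapping groups.

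All 5 autophagy genes had a log2 fold change above 0, and 1 passed the unadjusted threshold, where 48.4% of all genes tested were above 0 and 7.74% were higher at that threshold. MAP1LC3B and ULK1 changed sign when single libraries were left out. Of the 38 further autophagy genes described below, 18 were above 0 and 20 below. WIPI1, which binds phosphoinositides on the forming autophagosome, was at 7.94 and 7.93 FPKM in control siRNA and at 12.3 and 10.5 FPKM in KIF26B siRNA libraries, a log2 fold change of 0.47 (limma standard error 0.13, adjusted p = 0.262). Exons of WIPI1 overlap ARSG on the opposite strand, at 2.39 and 2.29 FPKM in control and at 6.16 and 3.50 FPKM in KIF26B siRNA libraries. Whether the counting used the strand is not given in the sources used here, so that reads of such pairs cannot be told apart. SQSTM1, the receptor p62 that links ubiquitinated cargo to the autophagosome, was at 34.4 and 34.8 FPKM in control and at 42.4 and 87.9 FPKM in KIF26B siRNA libraries, or 1.23 and 2.54 times the control mean. Both libraries lay above both controls, but with the KIF26B siRNA libraries 2.07-fold apart the log2 fold change of 0.80 (standard error 0.38) did not pass the unadjusted threshold (adjusted p = 0.382 from limma). SQSTM1 also overlaps MRNIP and MGAT4B on the opposite strand, at 6.39 to 10.3 and 20.2 to 24.6 FPKM. Exons of other members, among them CTSZ and MAP1LC3B, overlap genes on the opposite strand as well.

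GABARAPL1, of the LC3 and GABARAP family, was at 14.5 and 16.4 FPKM in control and at 18.7 and 26.3 FPKM in KIF26B siRNA libraries (adjusted p = 0.34 from limma). MAP1LC3B, the LC3 protein most used as an autophagosome marker, was at 23.2 and 22.6 FPKM in control and at 20.7 and 25.7 FPKM in KIF26B siRNA libraries, with a 95% interval of the log2 fold change from −0.41 to 0.43. ULK1, the initiating kinase, was at 8.89 and 9.75 FPKM in control and at 8.34 and 15.2 FPKM in KIF26B siRNA libraries, so that it was high in replicate 2 alone. TFEB itself was at 2.15 and 2.20 FPKM in control and at 1.52 and 2.32 FPKM in KIF26B siRNA libraries. Its groups overlapped, and the 95% interval of its log2 fold change reached from −0.63 to 0.36.

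The KIF26B siRNA libraries differed from each other for more members than the controls did, as they also did over all genes tested. They lay over 1.5-fold apart for 8 of the 38 members, NPC1, SQSTM1, CTSD, ULK1, GLA, CTSC, CTSL and TFEB. Of all genes tested, which reach down to a mean of 1 FPKM, 29.2% were that far apart. In control libraries 21 of the 38 members averaged at least 10 FPKM, and the part of level in such shares was not tested. The control libraries lay over 1.5-fold apart for 0 members, where 8.65% of all genes tested did, and the widest gap among members was 1.17-fold. KIF26B siRNA replicate 2 was the higher library for 21 of the 38 members. In that library 20 members lay above the control mean, with a median log2 difference of 0.06, and in replicate 1 17 members did, with a median of −0.07. The corresponding medians over all genes tested were −0.0046 and −0.02. Shares of all genes tested on each side were not counted, so that these counts of members are a description only.

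Since KIF26B was below both controls in replicate 2 alone, on 8 reads, log2 fold changes were also taken without KIF26B siRNA replicate 1. A group of 1 library has no spread of its own, so that only effect sizes are given here. The largest rises among the members were those of CTSD (1.53), SQSTM1 (1.32) and GLA (0.84). The largest falls were those of NEU1 (−0.82), MCOLN1 (−0.79) and ATP6V0D1 (−0.60). Of these members, CTSD, NEU1, MCOLN1 and ATP6V0D1 had also passed the unadjusted threshold with both libraries. For GLA and SQSTM1 the difference in replicate 1 was small beside that in replicate 2, at 1.07 and 1.23 times the control mean against 1.85 and 2.54 times.

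**Figure D3:**
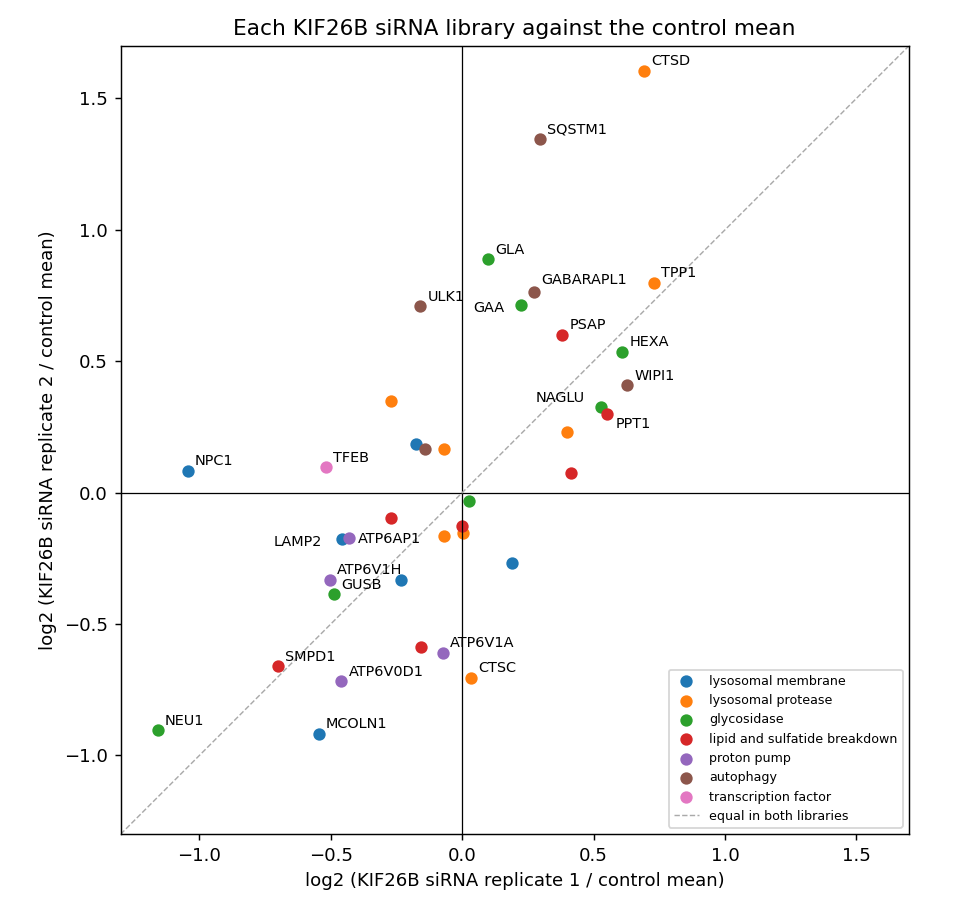
log2 ratio of each member to the mean of the control libraries, in KIF26B siRNA replicate 1 (horizontal) and replicate 2 (vertical), coloured by role, with the dashed line marking equal ratios. TPP1, HEXA and SMPD1 lie near the line, whereas CTSD, SQSTM1, GLA and ULK1 lie above it and NPC1 is low in replicate 1 alone; both axes share the same control libraries.

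The rest of the pathway was followed with 131 further genes in 6 lists, of which 123 were tested. At the unadjusted threshold 6 were higher (4.88%) and 18 lower (14.6%) with limma, against 7.74% and 8.68% of all genes tested. Their median log2 fold change was −0.04, beside −0.01 over all genes tested. Without control siRNA replicate 1 these counts were 2 and 3, and without control siRNA replicate 2 they were 1 and 3. Without KIF26B siRNA replicate 1 they were 27 and 32, and without KIF26B siRNA replicate 2 they were 20 and 33. In the fit with all 4 libraries, 0 passed after adjustment over all genes tested.

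Of 12 further proton pump subunits, 3 were lower (25.0%) and 1 was higher (8.33%), against 8.68% and 7.74% of all genes tested. ATP6V1D, of the rotor stalk, was at 12.6 and 12.5 FPKM in control and at 6.85 and 7.82 FPKM in KIF26B siRNA libraries (log2 fold change −0.70, adjusted p = 0.242 from limma). ATP6V0A2 and ATP6V0B, of the membrane sector, had log2 fold changes of −0.43 and −0.33. ATP6V1F went the other way, from 64.3 and 55.1 FPKM to 89.5 and 94.3 FPKM (log2 fold change 0.62, adjusted p = 0.243 from limma). The direction of the 4 members above was therefore not that of every subunit of the pump. Of the 12, 6 lay below both controls in both libraries and 5 above, where 27.8% and 24.9% of all genes tested did.

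Of 25 further hydrolases tested, 5 were lower and 1 was higher, where 8.68% and 7.74% of all genes tested were. In 8 of the 25 both KIF26B siRNA libraries lay below both controls, and in 9 both lay above. CTSV, a cysteine protease, was at 6.12 and 6.36 FPKM in control and at 2.31 and 4.09 FPKM in KIF26B siRNA libraries. GGH, which trims polyglutamates from folate, was at 21.3 and 21.7 FPKM against 11.1 and 13.5 FPKM. ARSB, a sulfatase, was at 1.69 and 1.54 FPKM against 0.863 and 0.935 FPKM, and met the filter on mean FPKM only through the controls. MAN2B1, the lysosomal α-mannosidase, was higher, at 9.25 and 9.22 FPKM against 13.6 and 15.5 FPKM. The log2 fold changes of CTSV, GGH, ARSB and MAN2B1 were −0.82, −0.77, −0.46 and 0.60 in this order.

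Of 16 further membrane proteins tested, 2 were lower (12.5%) and 0 higher, against 8.68% and 7.74% of all genes tested. LAMP3, a LAMP family member, was at 3.004 and 2.85 FPKM in control and at 0.920 and 0.856 FPKM in KIF26B siRNA libraries, a log2 fold change of −1.06 (limma adjusted p = 0.242). LAMP3 met the filter on mean FPKM only through the controls. OSTM1, the partner subunit of CLCN7, was at 4.51 and 4.72 FPKM against 2.15 and 1.67 FPKM, a log2 fold change of −0.95 (limma adjusted p = 0.242). CLCN7 itself had overlapping groups, as given above.

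**Figure D4:**
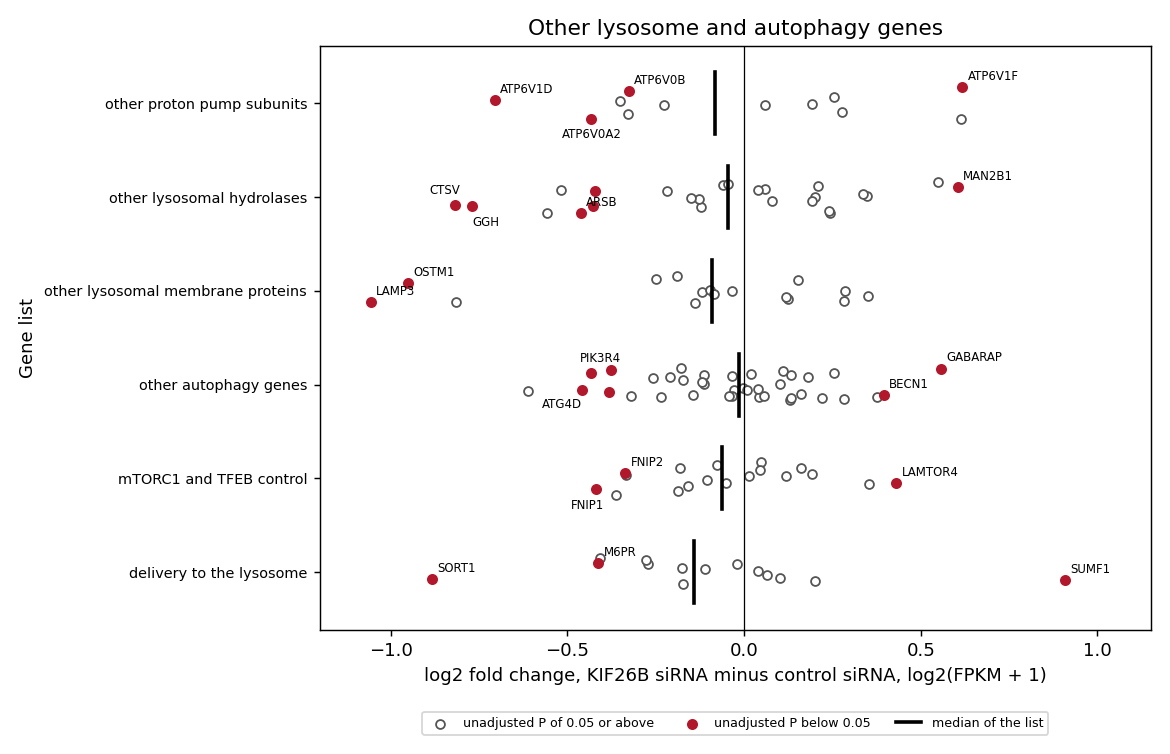
log2 fold change, KIF26B siRNA minus control siRNA on log2(FPKM + 1), of 123 further lysosome and autophagy genes in 6 lists, 1 point per gene, with a thick line at each list's median. The medians lie between −0.14 and −0.02, and 18 of the 24 filled points lie below 0.

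Of 38 further autophagy genes tested, 2 were higher (5.26%) and 4 lower (10.5%), against 7.74% and 8.68% of all genes tested. GABARAP, a relative of GABARAPL1, was at 0.922 and 0.805 FPKM in control and at 1.63 and 1.86 FPKM in KIF26B siRNA libraries (log2 fold change 0.56, adjusted p = 0.242 from limma). With 41 to 79 reads, GABARAP met the filter on mean FPKM only through the KIF26B siRNA libraries, where it is high. BECN1, of the lipid kinase complex, was at 6.76 and 6.17 FPKM against 9.46 and 8.21 FPKM (log2 fold change 0.40). PIK3R4 of the same complex was lower, at 9.07 and 10.4 FPKM against 7.28 and 6.60 FPKM. ATG4D, a protease that acts on LC3 family proteins, was also lower, at 15.0 and 15.2 FPKM against 9.53 and 12.0 FPKM. Of 18 genes of the nutrient-sensing machinery around mTORC1 and TFEB, 1 was higher (5.56%) and 2 lower (11.1%), beside the same shares of all genes tested. LAMTOR4, of the complex that anchors mTORC1 to the lysosome, was at 18.2 and 19.5 FPKM in control and at 26.96 and 24.6 FPKM in KIF26B siRNA libraries. FNIP1 and FNIP2, partners of folliculin, had log2 fold changes of −0.42 and −0.34, and FNIP2 met the filter on mean FPKM only through the controls.

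Of 14 genes that deliver enzymes to the lysosome or activate them on the way, 1 was higher (7.14%) and 2 lower (14.3%). Over all genes tested these shares were 7.74% and 8.68%. SORT1, a sorting receptor, was at 7.80 and 7.44 FPKM in control and at 3.60 and 3.75 FPKM in KIF26B siRNA libraries, a log2 fold change of −0.88 (limma adjusted p = 0.242). M6PR, the cation-dependent mannose 6-phosphate receptor, was at 19.96 and 18.4 FPKM against 14.7 and 13.7 FPKM. SUMF1, which activates sulfatases such as ARSA and ARSB, was at 2.86 and 2.64 FPKM in control and at 6.01 and 6.05 FPKM in KIF26B siRNA libraries, a log2 fold change of 0.91 (limma adjusted p = 0.242). SUMF1 and SORT1 differed little between libraries of a group.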

How the data were processed

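RNA of HCT116 cells was measured in 4 libraries, grouped and numbered by their labels. The authors purified poly(A) RNA, sequenced paired-end libraries, aligned them with HISAT2 2.0.5 and, per the submitters' processing notes, counted with featureCounts 1.5.0-p3. Methods name hg19 and those notes hg38; the files hold no coordinates. The authors deposited FPKM values, a unit read from the values. The annotation is not given in the sources used here.

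Symbols came from GENCODE v44 mapped to GRCh37, which named 56513 of 58735 identifiers. limma 3.58.1 in R 4.3.3 was fitted to log2(FPKM + 1) over genes averaging 1 FPKM or more, without covariates, in place of the count test of the study's methods, with Benjamini–Hochberg adjustment. A pseudocount of 1 understates the change of low genes. Intervals of 95% come from limma. Library depths were inferred from the steps between FPKM values of single-exon genes. Whole reads were recovered by finding, per gene, an exon length that gave whole numbers, within 0.005 reads, in all libraries. The fit was also run on simulated reads with the same dispersion in every library. The wider spread between the KIF26B siRNA libraries was not simulated, so that this run does not bear on the calls above. Members and lists were chosen with earlier results of these data known. From each further list, up to 4 genes with the largest change at an unadjusted P below 0.05 and separate groups were named. Alternatives were the replicate block, other filters, a pseudocount of 0.1, median-of-ratios scaling, a variance trend, limma-voom on recovered reads and leaving out each library. Python 3.11.15 was used.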

Additional observations from a re-analysis of the deposited data

How the results depend on the processing

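No paired origin is given for the replicate numbers, and deviations of same-numbered libraries from their group means correlated at −0.003 across genes. With the replicate block, 3 members were higher and 4 lower at an unadjusted P below 0.05 (7 and 6 without it), and 6 further genes were lower (18 without it). The members no longer called with the block were GUSB, HEXA, NAGLU, PPT1, ATP6V1H and WIPI1. With no filter on low values, 2192 genes were higher and 2186 lower, against 1124 and 1261. With a pseudocount of 0.1 or limma-voom on recovered reads, 2 members, CTSD and NEU1, in place of 1 passed with a log2 fold change beyond 1. CLCN7 was at −0.0003 with limma-voom. Leaving out 1 library in turn gave 281 to 3317 higher and 237 to 3424 lower genes, 0 to 2254 genes at an adjusted p below 0.05, 0 to 13 higher and 1 to 13 lower members, 0 to 10 members at an adjusted p below 0.05 and 0 to 2 beyond the fold threshold. It gave 13 to 20 members above and 14 to 20 below both controls, and 1 to 27 higher and 3 to 33 lower further genes. The members whose direction changed ranged from −0.15 to 0.17 for CLCN7, −0.26 to 0.19 for CD63, −0.0376 to 0.0323 for GLB1, −0.14 to 0.16 for MAP1LC3B, −0.96 to 0.0788 for NPC1, −0.33 to 0.0672 for TFEB, −0.15 to 0.0031 for CTSA, −0.0694 to 0.16 for CTSB, −0.48 to 0.0263 for CTSC, −0.26 to 0.34 for CTSL and −0.14 to 0.66 for ULK1 on the log2 scale. Each fit without a library left 1 library alone in its group, so that its P values rest on the spread of the other group. What caused these differences between settings was not tested. The 13 members called kept their direction under all alternatives run, but this was largely fixed in advance. Their groups do not overlap, so that leaving out a library or changing the pseudocount cannot reverse them. The replicate block, the filters and the variance trend do not alter the fold change itself. With limma, 0 members passed an adjusted p of 0.05 in any alternative with 2 libraries in each group.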
